A study of Mus musculus with 8 samples.

Results

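The Hox cluster genes are the homeobox genes whose symbol is Hox, a letter from a to d and a number, with no antisense or opposite-strand names, and 39 of the 32285 genes in the deposited matrices met that rule. In mm10 coordinates, 11 Hoxa genes lie on the minus strand of chromosome 6, 10 Hoxb genes on the plus strand of chromosome 11, 9 Hoxc genes on the plus strand of chromosome 15 and 9 Hoxd genes on the plus strand of chromosome 2. They were measured as unique molecular identifier (UMI) counts in 6 mouse single-cell libraries, made after a sort for Epcr+ and Lin- Sca-1+ Kit+, the gate used for hematopoietic stem cells (HSCs). A UMI marks 1 captured RNA molecule near its 3′ end, so levels are given as UMIs per 1000000 UMIs of the same cells (CPM) and are not divided by gene length.

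The groups were these. From 2 pups at postnatal day 2 (P2) that carried Tppp3-CreER and LSL-TdTomato and had tamoxifen at P0, bone marrow and spleen cells were sorted as tdTomato-positive or tdTomato-negative. Per the labels, 145 positive cells of pup 1 shared tube 1 with 5500 negative cells of pup 2, and 180 positive cells of pup 2 shared tube 2 with 5156 negative cells of pup 1, with hashtags to tell pup and tissue apart. The Cre is driven by Tppp3 and acts when tamoxifen is present, after which the reporter stays on in the cell and its descendants. The reporter itself was not among the genes counted. From 7 wild-type P2 mice, whose cells were merged, bone marrow, liver and spleen gave 1 library each, here called the P2 pools. The E19 library came from wild-type embryos at about 19 days of gestation, and its title names bone marrow while its tissue field names fetal liver. The labels give the pools, E19 and the pups batches 1, 2 and 3.

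After filters and removal of doublets, 34209 cells were kept, with a median of 6375 to 7890 UMIs in the pools and E19 and of 21905 and 20740 UMIs in the negative cells of pup 1 and pup 2. Between 2 libraries, at most 25 cell barcodes were shared. Of the kept cells, 18039 fell in clusters named HSC-like from a list of 10 markers without Hox genes (Mecom, Hlf, Procr and others), and all 10 were detected in every source, at a summed 1799 to 4016 CPM. By the naming rule given below, cell cluster 4 met 6 of the 10, and the other HSC-like clusters met 8 to 10. The other kept cells were named B cell-like, myeloid progenitor-like, erythroid-like, mast cell and basophil-like, dendritic-like and so on, or stayed unnamed, and Hox genes were left out of the genes used to cluster the cells.

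Hox genes encode homeodomain transcription factors that set position along the body axis, and within each cluster the genes stand in order of paralogue number, low numbers toward the head and high numbers toward the tail and the limb tip. In blood, genes of the HoxA and HoxB clusters are active in stem and early progenitor cells and are switched off as cells mature. HOXA9 and its partner MEIS1 support the self-renewal of stem cells and drive some leukaemias, forced HOXB4 expands stem cells, and Hoxb5 has been used to mark long-term stem cells in adult mouse marrow. MLL (Kmt2a) keeps the genes active and Polycomb complexes keep them silent.

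The promoters of 4 neighbours at the high-number end of the HoxA cluster are shown because the data turned between them: Hoxa9 and Hoxa10 were among the 10 leading members in HSC-like cells, while Hoxa11 and Hoxa13 had no UMI there. Each line gives the 250 bases before a start in RefSeq (GRCm38.p6, minus strand, 5′ to 3′), with CG dinucleotides in capitals.
Hoxa9: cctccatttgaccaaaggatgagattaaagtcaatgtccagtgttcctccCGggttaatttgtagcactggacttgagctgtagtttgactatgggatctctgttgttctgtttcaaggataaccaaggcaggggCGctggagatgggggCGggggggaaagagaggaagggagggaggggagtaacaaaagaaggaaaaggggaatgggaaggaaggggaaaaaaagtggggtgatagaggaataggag
Hoxa10: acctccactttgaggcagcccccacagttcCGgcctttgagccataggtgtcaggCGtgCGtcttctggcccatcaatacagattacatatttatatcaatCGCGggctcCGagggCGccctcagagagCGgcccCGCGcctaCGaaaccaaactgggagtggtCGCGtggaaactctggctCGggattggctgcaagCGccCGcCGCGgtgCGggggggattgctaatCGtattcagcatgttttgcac
Hoxa11: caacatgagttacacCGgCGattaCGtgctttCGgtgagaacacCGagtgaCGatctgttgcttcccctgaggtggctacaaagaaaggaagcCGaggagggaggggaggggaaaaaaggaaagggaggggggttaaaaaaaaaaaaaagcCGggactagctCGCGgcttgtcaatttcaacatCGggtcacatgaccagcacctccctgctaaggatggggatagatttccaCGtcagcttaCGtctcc
Hoxa13: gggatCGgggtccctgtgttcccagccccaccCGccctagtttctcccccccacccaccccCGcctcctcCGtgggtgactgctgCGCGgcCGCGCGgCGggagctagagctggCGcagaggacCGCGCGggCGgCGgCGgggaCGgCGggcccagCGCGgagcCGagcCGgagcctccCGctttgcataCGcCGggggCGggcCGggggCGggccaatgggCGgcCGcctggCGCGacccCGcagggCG
They lie at chr6:52227371-52227620 (Hoxa9), chr6:52234940-52235189 (Hoxa10), chr6:52245811-52246060 (Hoxa11) and chr6:52260881-52261130 (Hoxa13). The Hoxa9 and Hoxa10 windows precede starts of shorter transcripts, inside the gene models of these genes, and the table holds another Hoxa10 window as well.

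The Hoxa9 window held 3 CG dinucleotides, a number that 71.0% of 32851 RefSeq mouse windows of this length reach. The Hoxa10 window held 20 (17.9% of windows reach it) and its other window held 7. The silent neighbours Hoxa11 and Hoxa13 held 13 and 35, so the number of CGs did not follow the order of levels in these windows. Across the 24 windows available for 22 of the 39 members, the median was 12.5 CGs, against 6 over all windows. Of the letters searched on both strands, TGACAG, a core bound by MEIS factors, stood in 2 Hox windows (Hoxa2 and Hoxa3) and in 15.9% of all windows. TGATTNAT, a joint PBX and HOX motif, stood in 2 (Hoxa2 and Hoxd11) and in 2.82% of all windows, and TTTATG, a caudal-type motif, in 5 (Hoxa7, Hoxb8, Hoxd3, Hoxd4 and Hoxd11) and in 10.8% of all windows. The printed windows held none of these letters.

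The kept cells held 83766 Hox UMIs among 369590428 UMIs in all. The HoxA cluster gave 90.5% of them, HoxB 9.14%, HoxC 0.252% and HoxD 0.106%. Hoxa9 alone gave 45.3%, Hoxa7 20.7% and Hoxa3 11.9%. Of the 39 members, 24 had at least 20 UMIs and 7 of these at least 1000, 11 had 1 to 19 UMIs, and 4 (Hoxb13, Hoxc12, Hoxc13 and Hoxd1) had none. HSC-like cells held 92.2% of the Hox UMIs and 52.0% of all UMIs.

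Within the HoxA cluster the HSC-like level did not fall off evenly with paralogue number. Over all libraries together it was 183 CPM for Hoxa9, 79.6 CPM for Hoxa7, 50 CPM for Hoxa3, 25 CPM for Hoxa5 and 20.6 CPM for Hoxa10. Between these stood weak genes: Hoxa6 at 3.63 CPM, Hoxa2 at 2.00 CPM and Hoxa4 at 1.60 CPM, and past Hoxa10 the level ended at 0 UMIs for Hoxa11 and Hoxa13. The gene model of Hoxa3 spans Hoxa4, Hoxa5 and Hoxa6 on the same strand, so the split of reads among these 4 genes is uncertain. In the HoxB cluster the level was highest at Hoxb4 (16.4 CPM) and Hoxb3 (10.2 CPM), lower at Hoxb2 (4.17 CPM), Hoxb5 (2.48 CPM) and Hoxb6 (1.56 CPM), and under 0.5 CPM at Hoxb9 (0.474 CPM), Hoxb8 (0.349 CPM) and Hoxb7 (0.114 CPM). Hoxb1 had 1 UMI and Hoxb13 none.

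**Figure D1:**
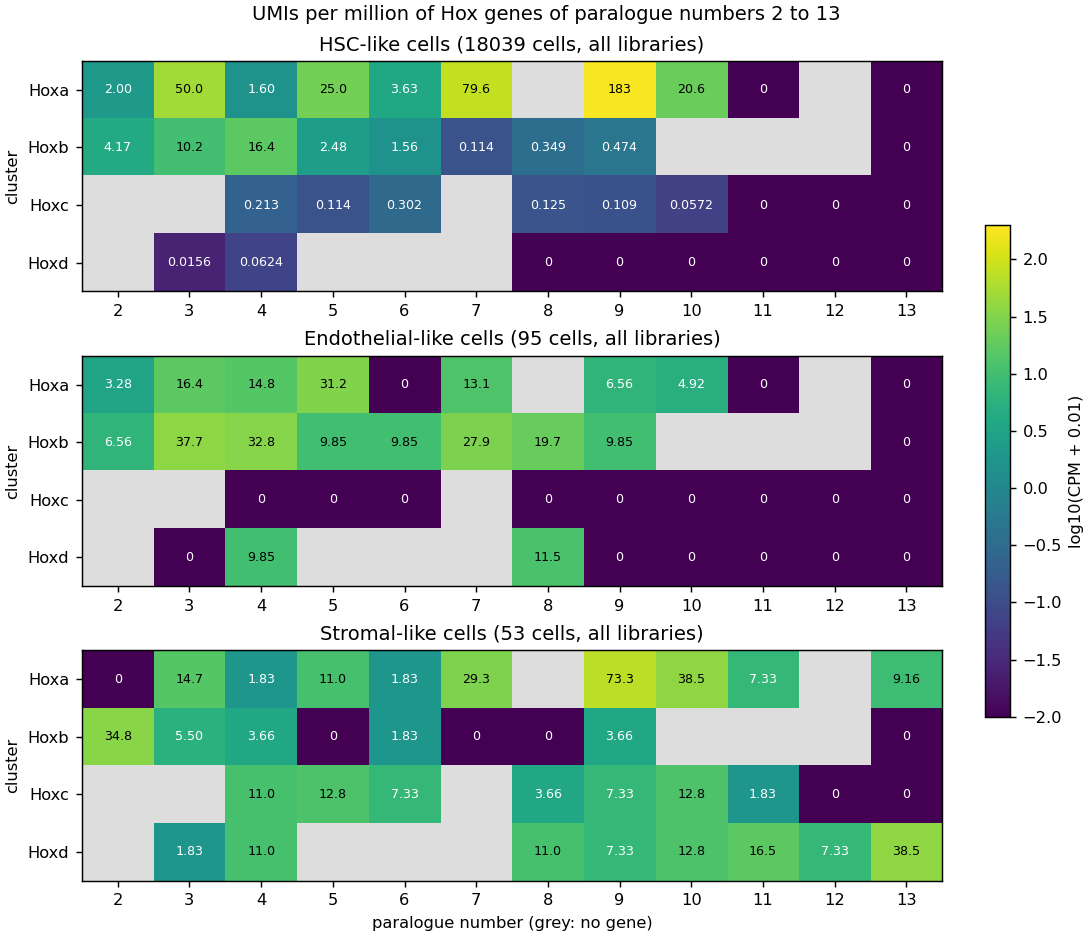
CPM of Hox genes by cluster (rows) and paralogue number (columns, 2 to 13) in HSC-like, endothelial-like and stromal-like cells of all libraries, coloured by log10(CPM + 0.01), with the CPM written in each cell and grey where no gene exists. HSC-like cells centre on Hoxa9 (183 CPM), endothelial-like cells on Hoxb3 (37.7 CPM) and Hoxb4 (32.8 CPM), and Hoxd13 (38.5 CPM) appears in stromal-like cells.

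Hoxa9, Hoxa7 and Hoxa3 were the 3 leading members, in that order, in each of the 6 sources, and the places of Hoxa5 and Hoxa10 behind them changed between sources. Hoxa9, the leukaemia-linked stem cell factor, stood at 222 CPM (95% Poisson interval 217 to 228) in negative cells of pup 1, 207 CPM (203 to 212) in those of pup 2, 129 CPM (124 to 134) in the bone marrow pool, 114 CPM (103 to 126) in the liver pool, 126 CPM (121 to 131) in the spleen pool and 168 CPM (164 to 171) at E19. The 2 pups were high and the 3 pools low, with E19 between them, and the pools' intervals overlapped each other. These intervals cover counting error only, and each library is a single one, so differences between libraries have no test here.

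Hoxa7, a neighbour that is often switched on with Hoxa9 in leukaemia, varied less, with 85.4 and 80.8 CPM in the pups' negative cells, 65.5, 69.0 and 64.7 CPM in the bone marrow, liver and spleen pools and 81.6 CPM at E19. Hoxa3, known for its part in thymus and parathyroid development, had 65.0 and 55.4 CPM in the pups, 32.6, 42.6 and 31.3 CPM in the 3 pools and 46.1 CPM at E19. Among the pools its liver value had an interval of 36 to 50 CPM, above those of bone marrow (30 to 35.3 CPM) and spleen (28.8 to 33.9 CPM). Hoxa3 was thus the one leading member whose liver level lay outside the intervals of the other 2 pools on the high side.

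Hoxa5 had 25.8 and 24.1 CPM in the pups, 11.4, 13.1 and 12.9 CPM in the pools and 34.1 CPM at E19. Hoxa10, a posterior gene that supports blood progenitor growth, had 26.1 and 21.9 CPM in the pups, 14.7, 13.1 and 15.9 CPM in the pools and 19.7 CPM at E19. Hoxb4 had 19.2 and 19.5 CPM in the pups, 11.1, 11.6 and 10.6 CPM in the pools and 15.6 CPM at E19. For these 3 genes the pools lay together below the pups and E19, and E19 led for Hoxa5 while the pups led for Hoxb4 and, in pup 1, for Hoxa10.

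Hoxb3, the neighbour of Hoxb4, had 11.8 and 10.0 CPM in the pups, 3.75, 5.11 and 4.92 CPM in the pools and 12.6 CPM at E19. The remaining leaders were weak. Hoxb2, known for its part in the hindbrain, spanned 1.42 to 6.42 CPM, Hoxa6 1.14 to 4.40 CPM and Hoxb5, the marker of long-term stem cells, 0 to 4.03 CPM over the 6 sources. Hoxb5 had no UMI in the 339 HSC-like cells of the liver pool, where 3 UMIs would be 0.851 CPM, against 1.41 CPM in bone marrow and 1.12 CPM in spleen. The upper limit of its interval in liver, 1.05 CPM, lay just under both.

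**Figure D2:**
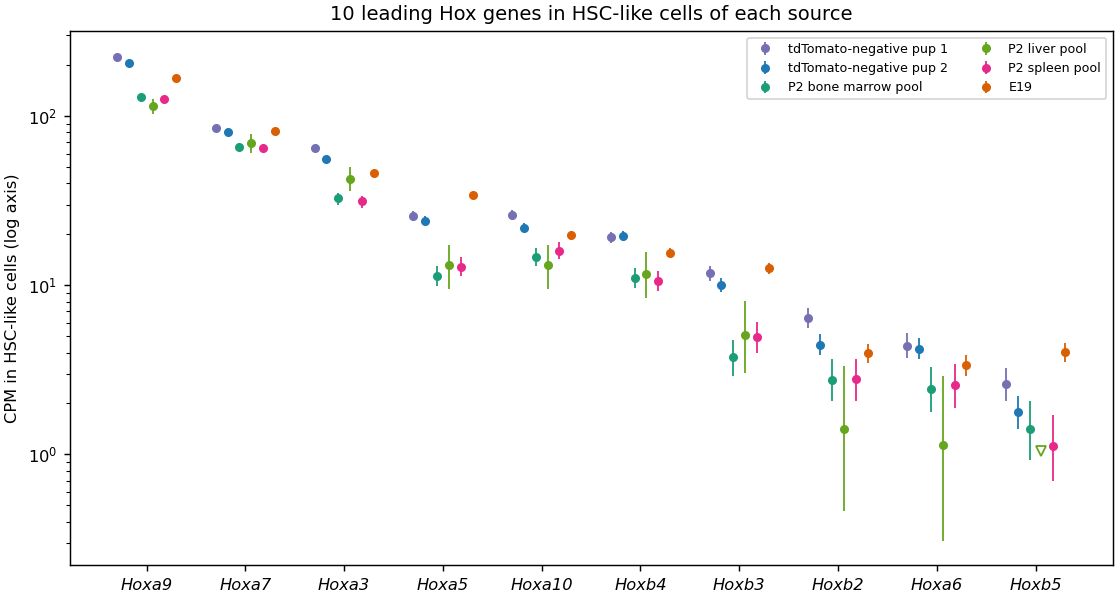
CPM (log axis) of the 10 leading Hox genes in HSC-like cells of each source, with 95% Poisson intervals and open triangles at the upper limit where no UMI was seen. Hoxa9 runs between 114 and 222 CPM, and for most genes the 3 P2 pools sit together below the pups and E19.

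All 39 genes summed gave 475 CPM (468 to 483) in HSC-like cells of pup 1 and 437 CPM (430 to 443) in those of pup 2, 278 CPM (270 to 286) in the bone marrow pool, 275 CPM (258 to 293) in the liver pool, 277 CPM (270 to 285) in the spleen pool and 399 CPM (394 to 404) at E19. The 3 tissues of the pool could not be told apart by their sum at this depth. The pools were also lowest in markers that are no Hox genes: the 10 HSC markers summed to 2852 and 2639 CPM in the pups, 1799 to 1911 CPM in the pools and 3533 CPM at E19. Some lists of other classes, such as those of myeloid progenitors and B cells, stood higher in the pools' HSC-like cells, and others did not. The 8 megakaryocyte markers summed to 176 and 167 CPM in the pups, 130, 130 and 122 CPM in the pools and 230 CPM at E19. The 9 myeloid progenitor markers summed to 113 and 112 CPM in the pups, 776, 1177 and 606 CPM in the bone marrow, liver and spleen pools and 269 CPM at E19, with none of the 9 at 0. The 9 B cell markers summed to 40.7 and 38.1 CPM in the pups, 86.3, 165 and 73.1 CPM in the pools and 39.4 CPM at E19. HSC-like cells of the pools came mostly from cell clusters 1 and 4, those of E19 and pup 2 from clusters 0, 2, 3 and 7, and those of pup 1 from clusters 9 and 21. Cluster 4 held 39.7%, 39.2% and 40.5% of the HSC-like cells of the bone marrow, liver and spleen pools. It met 6 of the 10 HSC markers, 4 lymphoid-primed and 4 myeloid progenitor markers. Without doublet removal, a cluster of 2306 cells, mostly from the pools, met 6 HSC and 6 myeloid progenitor markers and was named myeloid progenitor-like. Among the HSC-like clusters of more than 50 cells, the Hox sum ran between 238 CPM in cluster 4 and 576 CPM in cluster 33. Batch, depth, library and these marker lists move with the Hox sums, and their part in the result was not tested.

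The share of Hox UMIs from the HoxA cluster was nearly the same in every source, at 90.9% and 91.1% in the pups, 92.6%, 92.9% and 92.3% in the bone marrow, liver and spleen pools and 89.7% at E19. HoxB gave 8.85% and 8.66% in the pups, 7.29%, 7.12% and 7.64% in the pools and 9.97% at E19. HoxC gave 0.235% (36 UMIs) and 0.191% (38 UMIs) in the pups, 0.0782% (4 UMIs) in bone marrow, none in liver and spleen and 0.342% (79 UMIs) at E19. Hoxc6 led the cluster with 0.302 CPM over all libraries, followed by Hoxc4 with 0.213 CPM. Hoxc5 overlaps Hoxc6, Hoxc8, Hoxc9 and Hoxc10 on the same strand, so reads of these genes may be divided between them.

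HoxC RNA was rare. HSC-like cells held 177 of its 211 UMIs, in 129 of 18039 cells (0.921 CPM), while the 53 stromal-like cells held 31 in 13 cells (56.8 CPM, 38.6 to 80.6). A UMI from the 7 stromal markers (Col1a1, Dcn, Cxcl12 and others) was found in 6.20% of those 129 cells and in 3.59% of the other HSC-like cells. For the 6 endothelial markers (Cdh5, Pecam1, Kdr, Emcn, Stab2 and Tek) the shares were 84.5% and 67.9%. The cells with and without a HoxC UMI were not matched for depth, and neither list's part in the HoxC count was tested. HoxD was seen in 14 HSC-like cells, as Hoxd3 and Hoxd4 only.

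A single cell showed few Hox molecules. With every cell thinned to 5000 UMIs, at least 1 Hox UMI was left in 87.9% and 86.4% of HSC-like cells of the pups, 68.5%, 73.6% and 70.8% of those of the bone marrow, liver and spleen pools and 79.7% of those of E19. The median cell showed 2 different members in the pups and 1 in the other libraries. Hoxa9 itself was seen in 64.8% and 60.7% of cells in the pups, 43.5%, 44.3% and 43.4% in the pools and 50.3% at E19. Before thinning these shares were 95.4%, 94.1%, 55.9%, 60.8%, 55.7% and 59.3%, so the gap between the pups and the other libraries was smaller at equal depth. The median HSC-like cell had 24315 and 20684 UMIs in the pups and 6078 to 10022 UMIs elsewhere. Thinning left out 4 and 13 cells of the pups, 670, 25 and 565 of the pools and 2397 of E19.

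Free RNA was not measured on its own, so the thinned shares in other classes are given beside those of HSC-like cells. In the bone marrow pool, Hoxa9 was seen in 43.5% (41.2 to 45.8) of HSC-like cells, 16.2% (14 to 18.5) of myeloid progenitor-like cells, 6.60% (4.43 to 9.40) of B cell-like cells and 2.02% (1.01 to 3.58) of erythroid-like cells. The medians were 6766, 15680, 4625 and 11862 UMIs before thinning. Hoxb4 was seen in 5.30% of HSC-like cells, 3.12% of myeloid progenitor-like cells, 1.89% of B cell-like cells and 0.183% of erythroid-like cells. In HSC-like cells with and without a HoxB UMI, a HoxA UMI was seen in 69.8% and 65.2% in the bone marrow pool. These shares were 68.4% and 69.9% in the liver pool, 70.2% and 67.7% in the spleen pool and 79.4% and 75.6% at E19. In negative cells they were 86.5% and 84.9% for pup 1 and 85.1% and 83.0% for pup 2. The liver pool alone went the other way, with a HoxB UMI in 12.1% of its 314 cells, and these gaps were not tested.

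Among the named classes with at least 50 cells in a pool, the Hox sum was highest in HSC-like cells of each pool. The interval of the 52 endothelial-like cells of the spleen pool (236 CPM, 176 to 311) held the HSC-like value, and the other classes lay lower. In the bone marrow pool it was 278 CPM in HSC-like cells, 83.1 CPM in mast cell and basophil-like cells, 67.6 CPM in myeloid progenitor-like cells, 56.3 CPM in dendritic-like cells, 39.6 CPM in B cell-like cells and 9.12 CPM in erythroid-like cells. The liver pool gave 275, 74.6, 38.2, 17.4, 22.0 and 5.45 CPM in the same classes, and the spleen pool 277, 58.6, 66.8, 32.9, 9.48 and 4.73 CPM. T, NK and innate lymphoid-like cells held 1 Hox UMI in liver (1.04 CPM) and 1 in spleen (0.693 CPM). Over all cells other than the HSC-like ones, the HSC-like sum was 4.34-fold higher (4.05 to 4.64) in the bone marrow pool, 9.65-fold (8.61 to 10.8) in liver and 9.56-fold (8.86 to 10.3) in spleen. These ratios depend on which cells each library holds and on how finely cells were clustered, and with the clustering resolution lowered to 0.5 they were 1.86, 5.91 and 3.02.

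**Figure D3:**
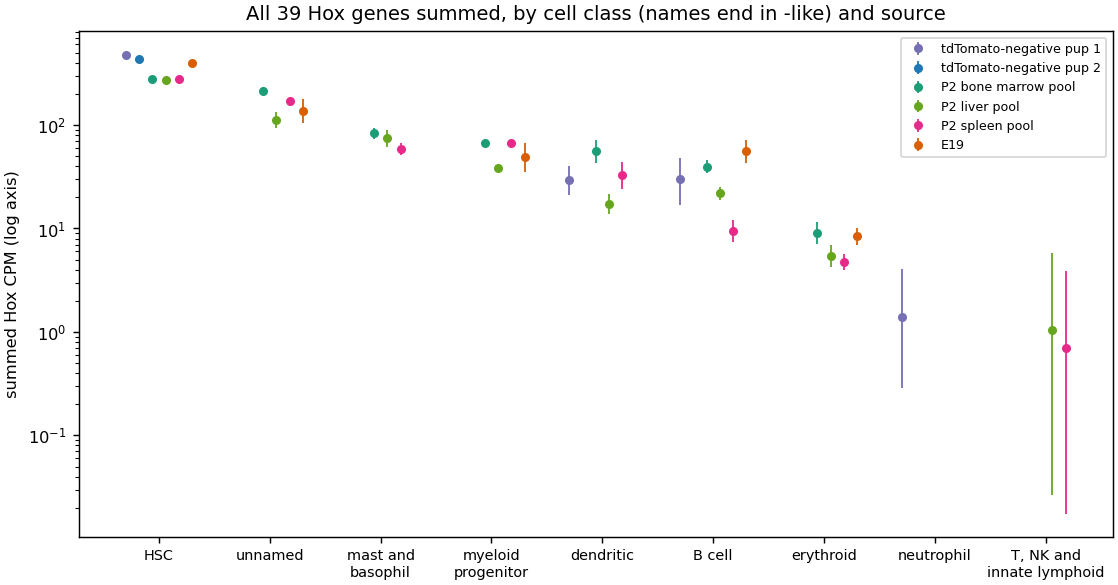
Summed CPM (log axis) of the 39 Hox genes by cell class and source with 95% Poisson intervals, for groups of at least 50 cells. The endothelial-like cells of the spleen pool (236 CPM, 176 to 311) are not drawn. HSC-like cells lie at 275 to 475 CPM, erythroid-like cells at 4.73 to 9.12 CPM, and T, NK and innate lymphoid-like cells near 1 CPM.

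B cell-like cells fell into a Hox-bearing and a Hox-poor part. The 3 cell clusters led by Igll1, Ebf1 and Vpreb genes, which mark early B precursors, had 48.7 CPM (42.9 to 54.9), 49.6 CPM (42.3 to 57.7) and 54.0 CPM (43.0 to 67.0). The other 5 B cell-like clusters, led by light chain genes with Ms4a1 or by Vpreb3 and Ebf1, ran between 0.757 and 7.84 CPM. The early clusters drew most of their cells from the bone marrow pool (728 of 885), the liver pool (571 of 572) and E19 (131 of 145), while the spleen pool gave 1356 of the 1877 cells of the largest Hox-poor cluster. An unnamed cluster of 723 cells led by Dntt, Ebf1 and Il7r, genes of early lymphoid cells, had 205 CPM (193 to 217).

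Members differed in how sharply they were set off between HSC-like and myeloid progenitor-like cells, which carry Mpo, Elane and Cebpa. In the liver pool, 665 of the 1631 myeloid progenitor-like cells lay in a mixed cluster, which also met 10 erythroid and 8 B cell markers. It stayed unnamed at a resolution of 2, and its Hox sum was 26.0 CPM, against 41.0 CPM in the other liver cluster of the class. The liver folds here and below are thus not against myeloid progenitors alone. Hoxa10 had 14.7 CPM in HSC-like cells and 0.525 CPM in myeloid progenitor-like cells of the bone marrow pool, a 27.9-fold difference (14.5 to 61.8). It was 325-fold (55.5 to 13104, on 1 UMI in the myeloid cells) in liver and 89.4-fold (24.5 to 741, on 2 UMIs) in spleen. Hoxa3 was 14.7-fold, 42.4-fold and 20.6-fold higher in HSC-like cells of bone marrow, liver and spleen, Hoxb3 12.9-fold, 21.2-fold and 13.8-fold and Hoxa5 7.21-fold, 13-fold and 9.68-fold. Among these 4 members Hoxa10 had the largest fold in each pool. Hoxa6 was 14-fold, 9.41-fold and 14.4-fold higher in HSC-like cells, on 2 or 3 UMIs in the myeloid cells.

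Hoxa9 and Hoxa7 were less set off. Hoxa9 was 3.74-fold (3.41 to 4.10), 7.11-fold (6.18 to 8.19) and 4.04-fold (3.61 to 4.53) higher in HSC-like than in myeloid progenitor-like cells of bone marrow, liver and spleen, and Hoxa7 3.02-fold, 5.26-fold and 2.70-fold. Hoxb4 differed by 2.02-fold (1.58 to 2.61), 1.98-fold (1.37 to 2.82) and 1.51-fold (1.16 to 1.99). Hoxb4 was at 5.48, 5.87 and 7.05 CPM in these progenitors, with each fold interval above 1, and its neighbour Hoxb3 was at 0.292, 0.241 and 0.357 CPM. Hoxb2 and Hoxb5 had no UMI in myeloid progenitor-like cells of bone marrow and spleen, and with 3 UMIs taken as the floor per library Hoxb2 was at least 15.8-fold and 10.4-fold higher and Hoxb5 at least 8.07-fold and 4.20-fold higher in HSC-like cells.

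In B cell-like cells Hoxa7 stood above Hoxa9 in 3 of 5 sources, with intervals that overlapped in each. Hoxa7 stood at 17.6 CPM and Hoxa9 at 14.3 CPM in the bone marrow pool (92 and 75 UMIs), 10.2 and 6.79 CPM in liver (83 and 55 UMIs) and 31.3 and 14.8 CPM at E19 (36 and 17 UMIs), whereas Hoxa9 stood at 3.40 CPM and Hoxa7 at 3.11 CPM in spleen (24 and 22 UMIs), and at 14.9 and 5.59 CPM in the 50 B cell-like cells of pup 1 (8 and 3 UMIs). Hoxa10 had no UMI in B cell-like cells of the 3 pools, so it was at least 25.6-fold, 35.3-fold and 37.5-fold higher in HSC-like cells of bone marrow, liver and spleen. Hoxb4 was 3.22-fold, 4.72-fold and 10.7-fold higher in HSC-like than in B cell-like cells.

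Mast cell and basophil-like cells, which carry Mcpt8, Prss34 and Cpa3, differed from HSC-like cells by amounts that varied with the gene and the pool. Their 948 cells formed 1 cluster that also met 7 of the 8 megakaryocyte markers, with Pf4 among its leading genes. At a resolution of 2, 372 cells were named mast cell and basophil-like, and an unnamed cluster of 608 cells was led by Pf4. The values of this class thus cannot be credited to mast cells and basophils alone. Hoxa9 was 3.12-fold, 3.08-fold and 5.32-fold higher in HSC-like than in mast cell and basophil-like cells of the 3 pools. Hoxa10 was 4.36-fold (2.34 to 9.20), 10.2-fold (2.68 to 87.1) and 7.48-fold (3.75 to 17.5) higher, so in bone marrow and spleen it was set off less from mast cell and basophil-like cells than from myeloid progenitor-like cells, with intervals that did not meet. Hoxb4 was 2.75-fold, 1.40-fold and 1.67-fold higher, and the liver interval, 0.738 to 2.86, held 1. Erythroid-like cells were at the far end, with Hoxa9 lower than in HSC-like cells by a factor of 23.6, 43.8 and 43.7. All folds between classes are descriptions without a test, since the classes were made from the same cells.

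**Figure D4:**
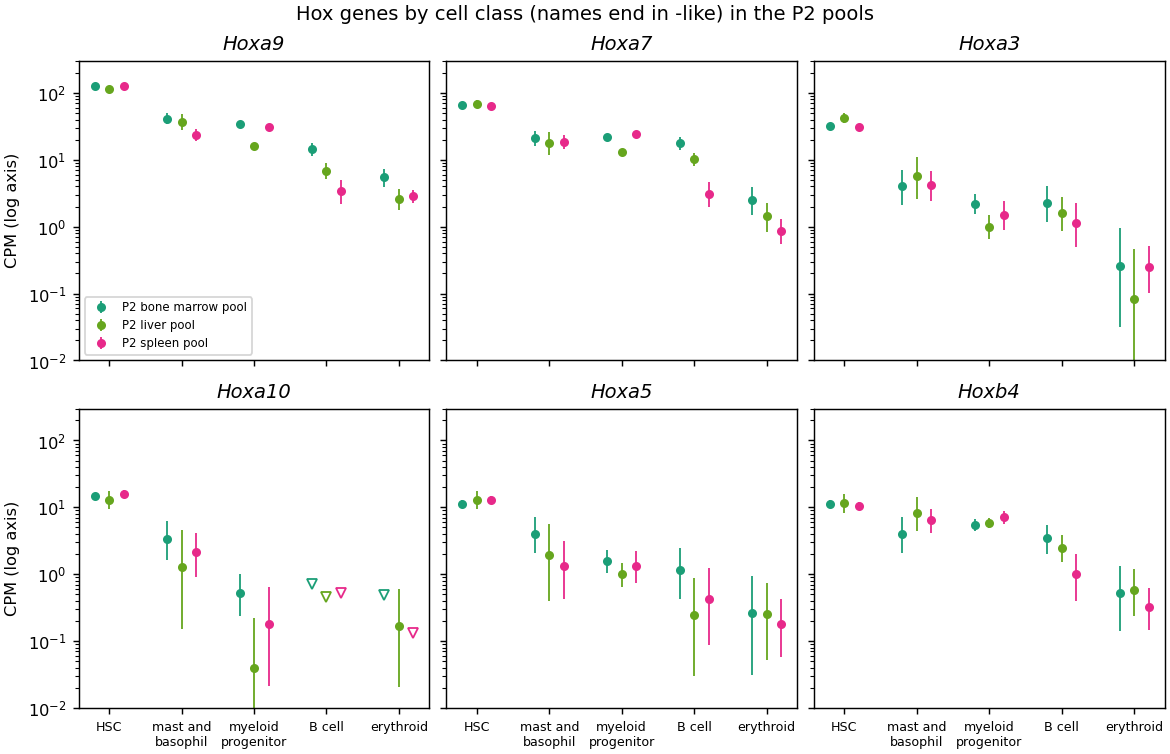
CPM (log axis) of 6 Hox genes in 5 cell classes of the bone marrow, liver and spleen pools with 95% Poisson intervals, open triangles marking the upper limit where no UMI was seen. Hoxa10 is at 0.525 CPM or less in myeloid progenitor-like cells while Hoxb4 is at 5.48 to 7.05 CPM there.

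Cells named endothelial-like and stromal-like carried other Hox sets. The endothelial-like cluster met 6 endothelial markers, and also 7 of the 10 HSC markers and 4 stromal markers. The stromal-like cluster met 7 stromal markers, and also 6 hepatocyte and 4 neutrophil markers. Their values thus cannot be credited to vessel and connective tissue cells alone. The 95 endothelial-like cells, 52 of them from the spleen pool, summed to 269 CPM (230 to 314), led by Hoxb3 with 37.7 CPM (23 UMIs), Hoxb4 with 32.8 CPM (20 UMIs), Hoxa5 with 31.2 CPM (19 UMIs) and Hoxb7 with 27.9 CPM (17 UMIs). Hoxa9 had 6.56 CPM (4 UMIs) there, and no HoxC UMI was found. In the spleen pool Hoxb4 had 10.6 CPM in HSC-like cells and 41.7 CPM in endothelial-like cells, a ratio of 0.255 (0.132 to 0.566). Endothelial-like cells thus leaned to HoxB while holding a sum close to that of the pools' HSC-like cells.

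The 53 stromal-like cells, 27 from tube 2, 15 from the bone marrow pool, 10 from the liver pool and 1 from tube 1, summed to 403 CPM (352 to 460). Hoxa9 led with 73.3 CPM (40 UMIs), followed by Hoxa10 and Hoxd13 with 38.5 CPM (21 UMIs each), Hoxb2 with 34.8 CPM (19 UMIs) and Hoxa7 with 29.3 CPM (16 UMIs). The members with high numbers, known for patterning the limb, were seen here: Hoxd10 to Hoxd13 had 41 UMIs and Hoxa11 and Hoxa13 had 9 UMIs, and no cell of another class held one. Of the HoxD UMIs in these cells 56 of 58 came from tube 2, found in 14 cells, so this set rests almost wholly on 1 library. HSC-like cells held 12 Hoxd4 and 3 Hoxd3 UMIs, and no UMI of another HoxD gene.

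P2 and E19 differ in age, batch and, by 1 of 2 labels, tissue, so these cannot be told apart, and 1 E19 library allows no test. Hoxa5 lay between 11.4 and 25.8 CPM in HSC-like cells of the 5 P2 sources and at 34.1 CPM (32.6 to 35.7) at E19. Hoxb5 lay between 0 and 2.60 CPM at P2 and at 4.03 CPM (3.53 to 4.58) at E19. These were the 2 of the 39 members whose E19 interval lay wholly above the interval of each P2 source. Hoxb3 (3.75 to 11.8 CPM at P2 and 12.6 CPM at E19) and Hoxb9 (0 to 0.272 CPM at P2 and 1.07 CPM at E19) lay above 4 of the 5.

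The other leading genes did not stand apart in this way. Hoxa9, with 114 to 222 CPM at P2 and 168 CPM at E19, lay above the 3 pools and below both pups at E19, and Hoxa3 was placed likewise against 2 pools and 2 pups. No member had an E19 interval below the intervals of more than 2 P2 sources. The pups and the pools share the P2 age and differ in batch, genotype, tamoxifen and sort, and for Hoxa9 the difference between pups and pools at the same age was larger than the difference of either from E19.

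Among the HSC-like cells of the pups, 33 positive cells of pup 1 and 30 of pup 2 could be set against 1281 and 2088 negative cells. The compared cells lay in different cell clusters, which went with the tube: of the positive cells of pup 1, 60.6% were in cluster 0, against 61.2% of its negative cells in cluster 9, and of the positive cells of pup 2, 70% were in cluster 9, against 37.2%, 26.2% and 22.8% of its negative cells in clusters 3, 0 and 2. The 8 neutrophil markers likewise summed to 6.53 CPM in positive and 75.5 CPM in negative cells of pup 1, and to 101 CPM in positive and 6.88 CPM in negative cells of pup 2. The median positive cell had 12930 and 17938 UMIs and the median negative cell 24315 and 20684 UMIs in pup 1 and pup 2. Counts were summed for each pup and sort, with bone marrow and spleen together. The negative cells were 105 of bone marrow and 1176 of spleen in pup 1, and 1320 and 768 in pup 2. The sums were tested over 13856 genes by edgeR's quasi-likelihood test with Benjamini-Hochberg adjustment. Of the 39 members 13 passed its filter on low counts. No member was called, with 0.491% of all genes called (14 higher and 54 lower in positive cells). DESeq2 called 249 genes and likewise no member, and with the pup as a block edgeR called 595 genes and no member, the lowest adjusted p of a member being 0.0956. The median log2 fold change of the 13 members was 0.18, beside -0.03 over all genes tested. With depth-matched negative cells 7 members were tested, 1 of them higher in positive cells. Their median log2 fold change was -0.09, beside 0.00 over all genes.

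Hoxb3 had the lowest p. It stood at 23.9 CPM (11 UMIs) in positive and 11.8 CPM (380 UMIs) in negative cells of pup 1, and at 26.1 CPM (15 UMIs) in positive and 10.0 CPM (455 UMIs) in negative cells of pup 2. Both positive sums lay above both negative sums, with a log2 fold change of 1.11 ± 0.27 (SE), an unadjusted p of 0.00305 and an adjusted p of 0.154 by edgeR's quasi-likelihood test, so it did not pass. Without the filter on low counts its adjusted p was 0.0345, and over all alternatives its log2 fold change ran between 0.47 and 1.27 and its adjusted p between 0.0345 and 1.000. The lowest log2 fold change came with hashtags assigned after subtracting their background, which raised the positive cells to 57 and 80.

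Hoxa9 was the other member with an unadjusted p under 0.05. It had 272 CPM in positive and 222 CPM in negative cells of pup 1, and 276 CPM in positive and 207 CPM in negative cells of pup 2. Its log2 fold change of 0.25 ± 0.10 had an adjusted p of 0.323 by edgeR, and the sign turned in 2 of 16 alternatives. Hoxb4, next to Hoxb3, had 15.2 CPM in positive and 19.2 CPM in negative cells of pup 1, and 15.6 and 19.5 CPM in those of pup 2, with a log2 fold change of -0.42 ± 0.28. The remaining 10 members lay between -0.58 ± 0.61 (Hoxb2) and 1.18 ± 0.70 (Hoxb6), on 0 to 62 UMIs in each positive sum.

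Positive cells also differed from negative ones in HSC markers as a whole, with 4016 and 3880 CPM in positive cells and 2852 and 2639 CPM in negative cells of pup 1 and pup 2. Each pup's positive cells shared a tube with the other pup's negative cells. With the tube as a block edgeR called 236 genes and no member. The part of the tube, the tissue mix, the clusters and the HSC markers in the Hox values was not tested beyond this block.

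Bone marrow and spleen were compared in HSC-like cells of 3 sources at P2: the pool, and the negative cells of pup 1 and of pup 2, with batch in the model. Each source gives both tissues, and the 7 mice of the pool count as 1 source. No gene of the 14073 tested was called by edgeR's quasi-likelihood test (0%), and none of the 13 members tested had an unadjusted p under 0.05. By edgeR 311 genes had an unadjusted p under 0.05, and DESeq2 called 7 genes and no member. With the source as a block edgeR called 3 genes and no member, and without pup 1, whose bone marrow gave 105 HSC-like cells, it called 77 genes and no member.

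The main Hox genes were close between the tissues. Hoxa9 had 129 CPM in bone marrow and 126 CPM in spleen of the pool, 240 and 221 CPM in those of pup 1 and 214 and 198 CPM in those of pup 2. Its log2 fold change was 0.03 ± 0.07, that of Hoxa7 0.03 ± 0.07 and that of Hoxa3 0.02 ± 0.10. Differences between the sources were larger than those between the tissues within a source.

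Hoxb5, a rare member, had the largest fold change of the 13. It was higher in bone marrow in 3 of 3 sources, with 1.41 CPM in bone marrow and 1.12 CPM in spleen of the pool, 4.35 and 2.45 CPM in those of pup 1 and 2.25 and 1.12 CPM in those of pup 2, on 11 to 73 UMIs. Its log2 fold change of 0.49 ± 0.38 had an adjusted p of 1.00. Hoxa10 was lower in bone marrow in 3 of 3 sources (14.7 and 15.9 CPM, 25.7 and 26.2 CPM, and 21.8 and 22.1 CPM in bone marrow and spleen), with -0.13 ± 0.10 and an adjusted p of 1.00. For Hoxa9, Hoxa10 and Hoxb5 the sign did not turn in 20 alternatives, and for the other 10 members it turned in at least 1. A term for a different tissue effect in the pups than in the pool called no gene, and each member's adjusted p for it was 1.000.

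**Figure D5:**
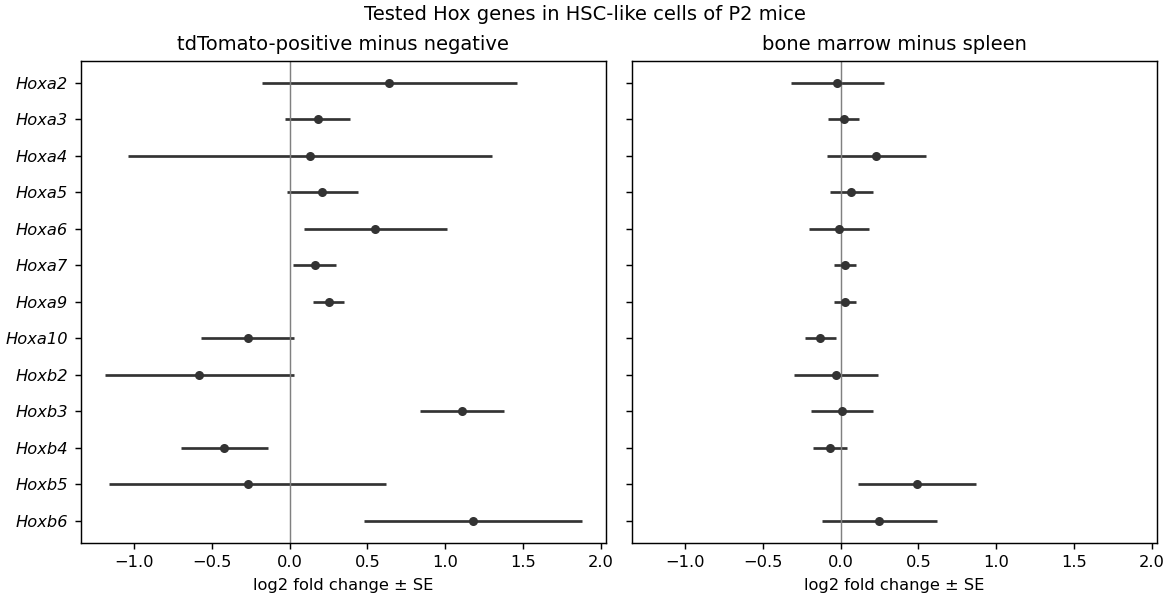
Log2 fold change ± SE of the 13 tested Hox genes in HSC-like cells, tdTomato-positive minus negative on the left (2 pups) and bone marrow minus spleen on the right (3 sources). No point passed an adjusted p of 0.05, and Hoxb3 on the left, at 1.11 ± 0.27, is the point farthest from 0 in units of its error.

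Partners and regulators of Hox genes were read in the same fits. Between bone marrow and spleen, none of the 7 tested TALE cofactor genes (Meis, Pbx and Pknox, 9 listed), 13 MLL and elongation complex genes or 16 Polycomb genes was called, with median log2 fold changes of 0.07, 0.00 and 0.00, beside -0.01 over all genes. Between positive and negative cells, 1 gene of these lists was called, Mllt3, the AF9 subunit of elongation complexes. It had 592 CPM in positive and 357 CPM in negative cells of pup 1, and 650 and 345 CPM in those of pup 2. Its log2 fold change was 0.72 ± 0.11 with an adjusted p of 0.0315, and Mllt3 also stands on the list of HSC markers that named the cells. The call was lost in 6 of 16 alternatives. With depth-matched negative cells the log2 fold change was 0.12 (adjusted p 1.000), with background-corrected hashtags 0.53 (0.803), over all cells 0.82 (0.305), at a clustering resolution of 0.5 it was 0.71 (0.0545), and without the positive sum of pup 1 or of pup 2 it was 0.80 (0.12) and 0.62 (0.130). Over all alternatives its adjusted p by edgeR or DESeq2 ran between 4.17e-14 and 1.000.

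The median log2 fold change in positive cells was 0.16 for the cofactors, 0.04 for the Polycomb genes and -0.13 for the MLL and elongation complex genes, beside -0.03 over all genes. Meis1, the main partner of HOXA9, had 875 and 970 CPM in positive and 686 and 707 CPM in negative cells of pup 1 and pup 2 (log2 fold change 0.30 ± 0.11, adjusted p 0.286 by edgeR). Meis2 had 8.70 and 12.2 CPM in positive and 1.70 and 1.61 CPM in negative cells, on 4 and 7 UMIs in the positive sums (log2 fold change 2.57 ± 0.51, adjusted p 0.0820 by edgeR). Ezh2, the catalytic Polycomb subunit, had 222 and 236 CPM in positive and 313 and 311 CPM in negative cells (-0.55 ± 0.10, adjusted p 0.0775 by edgeR). None of the 3 caudal genes passed the filter on low counts in either comparison.

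Over the sources Meis1 followed the same split as the Hox sum, with 686 and 707 CPM in the pups, 450, 486 and 419 CPM in the bone marrow, liver and spleen pools and 680 CPM at E19.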

How the data were processed

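Per the labels' protocols, cells enriched for c-Kit were sorted and run on 10x Chromium 3′ v3 reactions. The authors deposited raw UMI counts per gene and cell barcode, made with Cell Ranger 7.0.0 (P2 pools), 7.1.0 (E19) and 8.0.1 (pups) per the file headers. The build mm10 and, for all files, Cell Ranger 7.0.0 are given per the submitters' processing notes. Whether introns were counted is not given in the sources used here. The 2 hashtag samples held reference lists and were not used. The Hox genes, marker lists and regulator lists were chosen with earlier results of these data known.

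A cell needed at least 1000 genes and 2000 UMIs, with mitochondrial UMIs no more than 10%, which 37147 cells met. Of these, 2938 likely doublets were dropped by Scrublet score (scanpy 1.11.5), at 0.8% of barcodes for each 1000 barcodes in a library. Cells of the tubes were assigned to the one hashtag above its background (percentile 99 of that hashtag among cells dominated by the others) if it reached 3 times the runner-up. Cells were clustered on 2000 variable genes without Hox genes, 30 principal components and 15 neighbours at a resolution of 1 (leidenalg 0.10.2), and a cluster was named from markers at least 2-fold higher than elsewhere and at 10 CPM or more, with at least 3 needed. Gene coordinates are those of GENCODE vM21 on mm10, and promoter windows are RefSeq's on GRCm38.p6.

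UMIs were summed per class and source. CPM have exact 95% Poisson intervals, shares exact binomial (Clopper-Pearson) ones, and folds exact ones conditional on the total. UMIs are molecules, yet these cover counting error only. The sums of sources, not cells, were the replicates of the tests, made with edgeR 4.0.16 (R 4.3.3, TMM, filterByExpr, quasi-likelihood test, adjusted p under 0.05 over all genes), after a check on simulated data, with DESeq2 1.42.0 as an alternative. The pool is 1 source of 7 merged mice and each pup 1 animal, which makes 3 or 2 sources. The fits as designed held batch between tissues and no block between sorts, and took the sums as separate. Their p-values thus rest on the spread among the sums and leave out the pairing, which the blocks used as alternatives include. Bone marrow and spleen of a pup, and its positive and negative cells, come from the same animal, so the numbers pair the sums. Deviations correlated at 0.14 and 0.47 within pups 1 and 2 between tissues. Between sorts the correlation was 0.11, a single value, since with 2 sums per sort it must be the same in both pups. Described in full were the 10 members with the highest mean CPM over the 6 sources in HSC-like cells, and in each test every member past the filter. Cell classes, E19 against P2 and the liver against other tissues were described without a test. The values of some single genes are not reported here.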

Additional observations from a re-analysis of the deposited data

Results flagged for a closer look

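Noncoding genes that lie among the Hox genes were outside the measurements above, and 7 of the 9 looked at had UMIs above the limit that a count of 0 allows, while Hotair had none and Hottip had 1. In kept cells Hoxb3os had 1659 UMIs (1616 of them in HSC-like cells), Hoxaas3 had 1309 (1005), Hoxb5os had 640 (627), Hotairm1 had 449 (302), Hoxaas2 had 57 (50), Hoxa11os had 11 (6) and Hoxd3os1 had 4 (0). Hoxb5os thus had 640 UMIs where the genes it overlaps on the other strand, Hoxb5 and Hoxb6, had 494 and 309. Hoxb3os had 1659 UMIs where Hoxb3 and Hoxb2 had 2030 and 833. Hoxa11os was seen in HSC-like cells where Hoxa11 had no UMI. Whether the counting used strand is not given in the sources used here, so it is not known from them whether reads of a gene and of its opposite-strand partner were kept apart.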

How the results depend on the processing

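Of 832 values recomputed under alternatives, the counts of members called matched in 35 of 36. Without a filter on low counts 1 of 26 members tested was called between tdTomato-positive and negative cells (Hoxb3), beside 2.62% of all genes tested. Genes called there were 68 in the fit as designed, 249 by DESeq2, 570 without the filter, 595 with the pup as replicate block, 236 with the tube as a block, 32 and 95 at clustering resolutions of 0.5 and 2, 45 without doublet removal, and 0 over all cells, with depth-matched negative cells or with background-corrected hashtags. Leaving out 1 sum gave 0 to 189. Leaving out both sums of a pup was not run, since no residual degree of freedom is left. Between bone marrow and spleen 0 genes were called in the fit as designed, 3 with the source as replicate block, 110 without the filter and 0 to 77 when sums were left out, and no member in any. The blocks changed no call of a member. The tube block, and the corrected hashtags for the levels given next, were chosen after seeing the data.

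Levels moved with the clusters. The summed Hox CPM in HSC-like cells of bone marrow, liver and spleen pools was 208, 226 and 210 at resolution 0.5 and 317, 325 and 307 without doublet removal. It was 286 and 302 for bone marrow and liver at resolution 2, 266 for bone marrow with Hox genes kept for clustering, and 491 for pup 1 with background-corrected hashtags. The ratio of HSC-like to all other cells was 1.86, 5.91, 3.02 and 13.7 for bone marrow, liver, spleen and pup 1 at resolution 0.5. It was 8.33 for spleen and 14.5 for E19 at resolution 2, 8.73 for spleen with Hox genes kept, 22.4 for pup 1 with corrected hashtags, and 2.96, 4.75, 7.65 and 13 for bone marrow, spleen, E19 and pup 1 without doublet removal. The HoxA share in bone marrow was 93.5% at resolution 0.5. The cause was not tested. Of 450 fold changes of members 449 stayed on their side of the threshold (the call of Mllt3 was lost in 6 of 16), and of 240 shares of cells with a UMI 116 moved beyond their interval, under thinning to 2500 UMIs, no thinning or another clustering. With 33 and 30 positive cells, sums of under 20 UMIs for most members limit that comparison.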
